A study of Mus musculus with 6 samples.

Results

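The 54 genes described here encode nucleolar factors that make ribosomes, from the RNA polymerase I (Pol I) machinery to the last assembly factors of both ribosomal subunits. They were taken by gene symbol from the deposited count table of 52249 genes, which held each of the 54 symbols. The libraries came from mouse intestinal organoids, epithelial cultures grown from crypt cells, sequenced by a 3′ mRNA method. All 6 libraries carried the genotype Apc-knockout, that is, loss of the tumour suppressor that restrains WNT signalling. In 3 of them, called control here, this was the only change named, and the other 3 were labelled as also having IGF2BP3 overexpression. IGF2BP3 is an RNA-binding protein that stabilises selected messenger RNAs, and the title of the series links it to MYC expression. The second group is called OE-labelled, because its 3 libraries held 1, 0 and 0 counts of Igf2bp3, as did the control libraries. A 3′ tag of the mouse gene does not check a transgene that lacks that 3′ end. The vector and promoter used for overexpression, the age of the mice and the number of organoid lines are not given in the sources used here.

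Ribosome production starts in the nucleolus, where Pol I copies the ribosomal DNA into a long precursor RNA. Small nucleolar RNA-protein particles (snoRNPs) modify this precursor, a large particle called the small subunit processome cuts out the small subunit RNA, and separate factors assemble the large subunit. Many of these genes are textbook targets of MYC, which with its partner MAX binds the E-box motif CACGTG. Crypt cells that lose Apc are known for high MYC activity and active ribosome production.

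The 6 libraries held 2180116 to 2519917 counts each. Values below are CPM, counts scaled to a common library total after correction by TMM factors for differences in RNA composition. The detection floor, 3 counts in a library, corresponded to 1.17 to 1.4 CPM. Since each transcript is counted at its 3′ end, levels carry no correction for length. The library names form 1 series for each group, so a difference between those series and one between the groups cannot be told apart. The biological coefficient of variation between libraries of 1 group was 3.13% for control and reached 17.2% for the OE-labelled group. Mitochondrial ribosomal RNAs took 8.93% to 9.41% of control counts and 3.89% to 4.36% of OE-labelled counts. Of the 8 epithelial markers all were counted, at a summed 4124 to 4359 CPM in control and 5367 to 6086 CPM in OE-labelled libraries. Krt8, Krt18, Krt19 and Vil1 passed as higher and Cldn7 as lower (-1.09), while Epcam (0.07), Cdh1 (-0.12) and Cdx2 did not pass. The 6 fibroblast and 3 endothelial markers each summed to at most 1.4 CPM in every library, and the immune markers Cd3e, Adgre1 and Lyz2 were at 0. The immune marker Cd68 had 29 to 50 counts per library and did not pass. Stem cell markers summed to 369.8 to 385 CPM in control and 501 to 618 CPM in OE-labelled libraries. Most of this sum was Sox9, at a mean of 341 CPM in control and 510 CPM in the OE-labelled group. Among 5 tested, Ascl2 and Sox9 were higher and the other 3 did not pass. Of the 9 enterocyte markers none passed the count filter, with sums of at most 1.68 CPM. Secretory markers summed to 728 to 765 CPM in control and 1477 to 1687 CPM in OE-labelled libraries, without overlap. Of their 14 genes 8 were tested, with 4 higher and 4 that did not pass. In every library 1 of the genes called higher made up most of the sum. The defining genes Lyz1 and Chga were at 0 in every library. The 8 proliferation markers summed to 185 to 199 CPM and 192 to 209 CPM, ranges that overlap, with changes in both directions inside the list. Mcm5 (log2 fold change 0.9), Cdk1 (0.45) and Birc5 (0.88) passed as higher, Top2a (-0.61) passed as lower and 4 did not pass. Whether cell makeup has a part in the results below was not tested, and in bulk RNA fewer cells of a type and less RNA per cell cannot be told apart. Myc counts were 46, 67 and 54 in the control replicates and 8, 35 and 45 in the OE-labelled replicates. It was lower in the OE-labelled libraries (log2 fold change -1.11, edgeR SE 0.39, adjusted p = 0.0473). Apc transcripts were counted at 79.8 ± 4.27 CPM and 61.6 ± 2.35 CPM (SD, n = 3), which does not check the knockout, since a 3′ tag can lie outside the deleted part. The labels do not say that replicates came from separate cultures or animals, so p-values measure only the spread between these libraries.

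Of the ribosome biogenesis genes, as many rose as fell. All 54 passed the count filter, with 8 higher and 8 lower in the OE-labelled group at an edgeR adjusted p below 0.05, which is 14.8% each. Among all 10687 tested genes 29.2% passed, 16.5% higher and 12.7% lower, so the members' shares lie near this background. The median log2 fold change of the 54 was -0.04, beside 0.041 for all tested genes, and 25 of the 54 estimates were above 0. Members higher were Bop1, Polr1b, Polr1c, Fbl, Ppan, Ddx56, Imp4 and Nop10. Members lower were Utp20, Gar1, Nop56, Npm1, Gnl3, Nolc1, Mybbp1a and Tcof1. The largest estimated rise was that of Bop1, a 2.41-fold change, and the largest fall that of Utp20, to 0.586 of its control level. The 3 OE-labelled values were all above control for 13 members (24.1%, beside 25.3% of all tested genes) and all below it for 17 (31.5%, beside 20.4%).

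These counts depended on single libraries and on the test. Without control replicate 2 or control replicate 3 the members called higher fell to 3, beside 9.84% and 9.42% of all genes, and without OE-labelled replicate 2 to 5, beside 11.3%. The members called lower fell to 4 without each of the 3 control libraries in turn, beside 7.26%, 6.91% and 6.52% of all genes for control replicates 1, 2 and 3. Calls over all genes thus fell in these fits as well, from 3120 to between 1748 and 1892 without a control library. Without OE-labelled replicate 1 the members called lower reached 14, beside 15.9% of all genes. The added calls in that fit were Ddx10, Ddx21, Dkc1, Ncl, Utp15 and Wdr43. DESeq2 called 3 members higher and 7 lower, against a background of 9.91% and 9.7% of all genes.

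**Figure D1:**
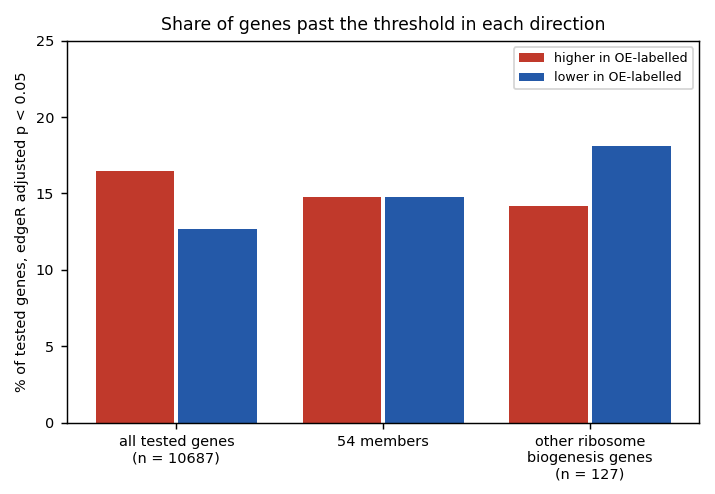
Share of tested genes past an edgeR adjusted p of 0.05 in each direction, in percent, for all 10687 tested genes, the 54 members and 127 other ribosome biogenesis genes. Red bars are genes higher and blue bars genes lower in OE-labelled libraries; the members stand at 14.8% in both directions.

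In summed abundance the members took a smaller part of the OE-labelled libraries. They held 0.706% to 0.712% of the counts in control and 0.635% to 0.67% in OE-labelled libraries. Ncl and Npm1, which encode the abundant nucleolar proteins nucleolin and nucleophosmin, made up 0.34% to 0.343% in control and 0.272% to 0.291% in OE-labelled libraries. The other 52 members together took 0.363% to 0.372% and 0.362% to 0.379%, ranges that overlap. As a share of all counts, the lower total therefore lay in those 2 genes. Mitochondrial genes took 11.6% to 11.96% of the counts in control and 6.77% to 7.19% in OE-labelled libraries. A smaller mitochondrial part by itself raises the share of other genes. Relative to the non-mitochondrial counts, the other 52 members took a smaller share in every OE-labelled library than in any control library. The lower total was therefore not confined to Ncl and Npm1 on that scale. No test was run on this difference.

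**Figure D2:**
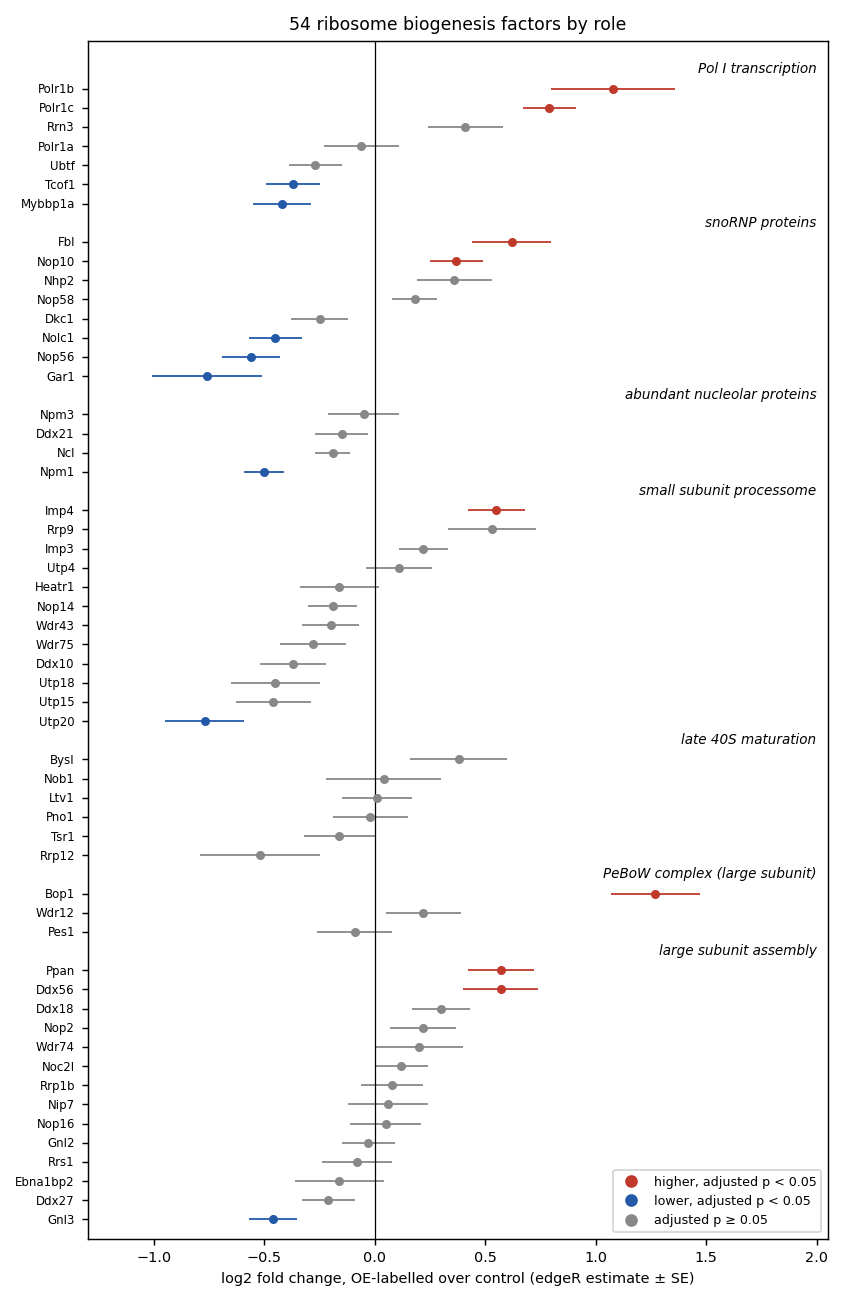
Log2 fold change of the 54 members, OE-labelled over control, with the edgeR standard error, grouped by role. Red points passed as higher and blue points as lower, and every role but the late small subunit factors holds at least 1 of the 16 genes that passed.

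The Pol I machinery held changes in both directions. Of its 7 members, the subunits Polr1b and Polr1c were higher, the accessory factors Tcof1 and Mybbp1a were lower and 3 did not pass. Polr1b (chromosome 2, 129100995 to 129126594, plus strand of GRCm38), the second-largest subunit, which helps form the active centre, was counted at 10.1, 8.39 and 8.7 CPM in control and 19.7, 12.9 and 25.2 CPM in OE-labelled libraries. Every OE-labelled value lay above every control value, though the OE-labelled values spread widely. The estimate was a 2.11-fold rise (log2 1.08, edgeR SE 0.28, adjusted p = 0.0118), which rested on 22, 18 and 19 counts in control and missed the threshold without control replicate 2 (edgeR adjusted p = 0.0537) or control replicate 3 (0.0537). Polr1c (chromosome 17, 46243920 to 46248054, minus strand), a subunit shared with RNA polymerase III, had 99.3, 104 and 95.7 CPM in control and 199, 154 and 163 CPM in OE-labelled libraries. The groups were well apart, with a log2 fold change of 0.79 (edgeR SE 0.12, adjusted p = 0.000728) that passed in all 16 alternatives. Polr1a, the largest subunit, had 56.8, 65.7 and 60.0 CPM against 71.2, 43.0 and 61.3 CPM. Its groups overlapped (log2 fold change -0.06, edgeR SE 0.17, adjusted p = 0.833). The count ratio of Polr1b to Polr1a was 0.15 ± 0.0253 in control and 0.329 ± 0.0717 in the OE-labelled group (SD, n = 3), with no overlap. That of Polr1c to Polr1a was 1.64 ± 0.0935 and 3.02 ± 0.501 (SD, n = 3), also without overlap. This and the other count ratios do not depend on library scaling. They were chosen after the values were seen, so their lack of overlap is no separate support for the calls.

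Tcof1 encodes treacle, a nucleolar scaffold for Pol I and its activator. It had 81.9, 92.7 and 87.9 CPM in control and 63.2, 69.9 and 70.1 CPM in OE-labelled libraries. All OE-labelled values were lower (log2 fold change -0.37, edgeR SE 0.12, adjusted p = 0.0349), a call that DESeq2 did not make (adjusted p = 0.0692). It was also lost with library totals in place of TMM (edgeR adjusted p = 0.0606) and without each of the 3 control libraries in turn (edgeR adjusted p from 0.0676 to 0.145). Mybbp1a, a nucleolar protein found with Pol I, had 115, 130 and 117 CPM against 103, 90.3 and 77.7 CPM. Again no value overlapped (log2 fold change -0.42, edgeR SE 0.13, adjusted p = 0.0276), although the call was lost without each control library in turn or without OE-labelled replicate 2 (edgeR adjusted p from 0.0677 to 0.128). Ubtf, the factor that keeps ribosomal DNA open for Pol I, had 69.1, 67.6 and 66.8 CPM against 55.9, 56.7 and 56.7 CPM. The groups stood apart with a small spread, but the change of -0.27 did not pass (edgeR SE 0.12, adjusted p = 0.11). Rrn3, which carries Pol I to its promoter, had 40.3, 39.6 and 33.4 CPM against 59.6, 49.2 and 41.2 CPM. Its values also did not overlap, and the change of 0.41 did not pass (edgeR SE 0.17, adjusted p = 0.0835).

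Promoter windows were examined for the E-box because MYC expression is the quantity the series names. RefSeq windows (GRCm38.p6, 250 bases before to 50 after a start site) matched 47 of the 54 members, and CACGTG, which reads the same on both strands, was found in 12 of them (25.5%). Over all genes with such a window the share was 8.09%, and over all windows 7.15%. The motif was present in 1 of the 6 matched members that were higher, 2 of the 6 that were lower and 9 of the 35 that did not pass. The member higher was Imp4, and those lower were Mybbp1a and Utp20, where the motif began 40 and 37 bases after the start site. Below, the motif is in capitals and each window is cut 30 bases after the start site. Rrn3 (chr16:13780449-13780728, plus strand) and Imp4 (chr1:34439579-34439858, plus strand) are shown as members with the motif. Polr1b (chr2:129100746-129101025, plus strand) and Polr1c (chr17:46248016-46248295, minus strand) are shown as the Pol I subunits that rose, whose windows do not hold these letters.
Rrn3: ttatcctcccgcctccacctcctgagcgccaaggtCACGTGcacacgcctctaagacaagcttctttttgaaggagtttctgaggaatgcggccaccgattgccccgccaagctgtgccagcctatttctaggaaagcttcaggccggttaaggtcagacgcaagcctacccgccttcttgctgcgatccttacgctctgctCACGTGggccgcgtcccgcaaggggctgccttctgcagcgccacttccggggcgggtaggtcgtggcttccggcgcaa
Imp4: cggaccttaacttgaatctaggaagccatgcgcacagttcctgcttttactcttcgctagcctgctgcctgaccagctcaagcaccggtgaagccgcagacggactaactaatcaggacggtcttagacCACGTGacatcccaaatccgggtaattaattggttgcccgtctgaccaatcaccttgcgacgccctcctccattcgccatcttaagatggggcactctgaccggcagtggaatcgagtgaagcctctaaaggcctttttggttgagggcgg
Polr1b: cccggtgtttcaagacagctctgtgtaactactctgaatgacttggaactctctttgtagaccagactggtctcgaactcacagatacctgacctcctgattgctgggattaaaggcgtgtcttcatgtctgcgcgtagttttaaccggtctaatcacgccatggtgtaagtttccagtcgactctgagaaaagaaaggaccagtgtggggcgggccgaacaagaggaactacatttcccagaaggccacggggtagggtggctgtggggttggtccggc
Polr1c: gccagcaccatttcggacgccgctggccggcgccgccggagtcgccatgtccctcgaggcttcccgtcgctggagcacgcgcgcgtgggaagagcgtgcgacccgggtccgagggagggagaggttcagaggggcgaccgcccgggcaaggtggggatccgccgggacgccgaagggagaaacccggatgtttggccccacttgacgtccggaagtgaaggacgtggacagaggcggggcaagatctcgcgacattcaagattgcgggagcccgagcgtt
In Rrn3 the motif began 215 and 48 bases before the start site, and in Imp4 121 bases before it. A match describes the letters of the window and shows no binding.

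Transcripts of the snoRNP proteins changed in both directions. Of 8 members, Fbl and Nop10 were higher, Gar1, Nop56 and Nolc1 were lower and 3 did not pass. In the box C/D particle, which methylates ribosomal RNA, Fbl encodes the methyltransferase fibrillarin, and Nop56 and Nop58 encode its paired scaffold proteins. Fbl (chromosome 7, 28169710 to 28179269, plus strand) had 25.2, 17.7 and 24.3 CPM in control and 35.8, 33.6 and 34.0 CPM in OE-labelled libraries. The groups did not overlap (log2 fold change 0.62, edgeR SE 0.18, adjusted p = 0.0196). DESeq2 gave an adjusted p of 0.0907, and the edgeR call was lost without control replicate 2, control replicate 3 or OE-labelled replicate 2 (adjusted p from 0.0502 to 0.101). Nop56 (chromosome 2, 130274430 to 130279313, plus strand) moved the other way, from 97.5, 83.0 and 80.1 CPM to 63.6, 58.2 and 54.6 CPM. Its log2 fold change of -0.56 (edgeR SE 0.13, adjusted p = 0.00692) passed in all 16 alternatives. Nop58 had 180, 174 and 189 CPM against 192, 211 and 213 CPM, just apart, and did not pass (log2 fold change 0.18, edgeR SE 0.1, adjusted p = 0.199). The Fbl to Nop56 count ratio was 0.258 ± 0.0447 in control and 0.588 ± 0.0313 in the OE-labelled group (SD, n = 3). Nop58 to Nop56 went from 2.1 ± 0.255 to 3.52 ± 0.448 (SD, n = 3). Neither ratio overlapped between groups. Nop56 overlaps exons of snoRNA genes on its own strand and of Idh3b on the other, and 5 other genes hold a close match to its 3′ end, so its counts are uncertain. Fbl has such a match in 2 other genes.

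The box H/ACA particle, which makes pseudouridine, also held changes in both directions. Dkc1 encodes its enzyme dyskerin, and Gar1, Nhp2 and Nop10 encode the other core proteins. Nop10 had 126, 110 and 145 CPM in control and 165, 154 and 174 CPM in OE-labelled libraries. The values were apart by a small gap (log2 fold change 0.37, edgeR SE 0.12, adjusted p = 0.0363), and the call was kept in 8 of 16 alternatives. It was lost with DESeq2 (adjusted p = 0.117) and with DESeq2 size factors in edgeR (0.0641). Leaving out control replicate 1 or 2, or OE-labelled replicate 2 or 3, also ended it (edgeR adjusted p from 0.0678 to 0.19). Gar1 had 76.4, 88.5 and 61.3 CPM against 23.7, 57.0 and 52.9 CPM. OE-labelled replicate 1, which also had the fewest Myc counts, was far lower than the others. The log2 fold change of Gar1 was -0.76 (edgeR SE 0.25, adjusted p = 0.0374) with all libraries. The call was lost with library totals (edgeR adjusted p = 0.0545) and without each control library in turn (edgeR adjusted p from 0.0537 to 0.156) and kept, at -0.51, without OE-labelled replicate 1. Dkc1 had 131, 148 and 122 CPM against 131, 106 and 98.7 CPM, with overlap (log2 fold change -0.25, edgeR SE 0.13, adjusted p = 0.172). Without OE-labelled replicate 1 it passed as lower (log2 fold change -0.44, edgeR adjusted p = 0.00751). Nhp2 overlapped between groups and did not pass (0.36, edgeR SE 0.17, adjusted p = 0.12). Nolc1, a phosphoprotein that accompanies both particles, had 149, 115 and 128 CPM against 98.6, 88.7 and 98.7 CPM. All its OE-labelled values were lower (log2 fold change -0.45, edgeR SE 0.12, adjusted p = 0.0169). That call was lost without control replicate 1, control replicate 3 or OE-labelled replicate 2 (edgeR adjusted p from 0.0548 to 0.104).

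Npm1 had the largest difference in CPM between the groups among the 54 members. Nucleophosmin (Npm1, chromosome 11, 33152287 to 33163206, minus strand) is a nucleolar histone chaperone. Its transcript had 1426, 1386 and 1433 CPM in control and 1057, 1038 and 903 CPM in OE-labelled libraries. The groups were well apart, at 0.706 of the control level (log2 fold change -0.5, edgeR SE 0.09, adjusted p = 0.00222). With the GC offset described below the change was -0.3 and did not pass (edgeR adjusted p = 0.0613). Transcripts of 4 other genes hold a close match to the 3′ end of Npm1, so reads may be shared. Ncl, a nucleolar RNA-binding protein, had 2068, 2069 and 2045 CPM against 1844, 1828 and 1739 CPM. These ranges did not overlap, but the change of -0.19 did not pass (edgeR SE 0.08, adjusted p = 0.104). Without OE-labelled replicate 1 it passed at -0.26 (edgeR adjusted p = 0.00885), and with the GC offset it was near 0 (edgeR adjusted p = 0.982). The Npm1 to Ncl count ratio was 0.687 ± 0.0157 in control and 0.553 ± 0.0298 in the OE-labelled group (SD, n = 3), with no overlap. Npm3, a smaller relative of Npm1, and the helicase Ddx21 overlapped between groups and did not pass (log2 fold changes -0.05 and -0.15). The Npm3 to Npm1 count ratio overlapped as well, at 0.042 ± 0.0065 in control and 0.058 ± 0.014 in the OE-labelled group (SD, n = 3).

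In the small subunit processome most members had lower estimates and few passed. Of 12 members, 1 was higher, 1 lower and 10 did not pass, with a median of -0.19. Utp20 (chromosome 10, 88746607 to 88826804, minus strand), a very large scaffold protein, had 38, 30.8 and 34.3 CPM in control and 20.1, 16.8 and 23.5 CPM in OE-labelled libraries. The groups were well apart, and the log2 fold change of -0.77 (edgeR SE 0.18, adjusted p = 0.00777) passed in all 16 alternatives. Imp4 (chromosome 1, 34439851 to 34449356, plus strand) binds the U3 snoRNA together with Imp3. It had 43.9, 37.8 and 37.1 CPM against 58.4, 56.7 and 59.2 CPM. The OE-labelled values lay close together above all controls (log2 fold change 0.55, edgeR SE 0.13, adjusted p = 0.0091). The call was lost with DESeq2 (adjusted p = 0.0557) and without control replicate 2 or 3 (edgeR adjusted p = 0.0537 and 0.0551). Its partner Imp3 and the U3 protein Rrp9 also had no overlap and higher estimates, 0.22 (SE 0.11) and 0.53 (SE 0.2), but did not pass (edgeR adjusted p = 0.137 and 0.0684).

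The processome members that load first onto the nascent precursor did not pass. They include Heatr1, Utp4, Utp15, Wdr43 and Wdr75, with log2 fold changes from -0.46 for Utp15 to 0.11 for Utp4. Heatr1 had 39.4, 42.4 and 35.7 CPM in control and 38.2, 40.2 and 26.0 CPM in OE-labelled libraries, so the groups overlapped (-0.16, edgeR SE 0.18, adjusted p = 0.522). Utp15 came nearest to the threshold (edgeR adjusted p = 0.0547), with 27.5, 29.8 and 28.4 CPM against 20.5, 19.9 and 21.8 CPM. Its groups did not overlap. Utp18 (-0.45), Ddx10 (-0.37), Wdr75 (-0.28) and Nop14 (-0.19) also lay below control in every library without passing, whereas Wdr43 (-0.2) overlapped. Of these, Ddx10 encodes a helicase, and Wdr43 and Ddx10 passed as lower without OE-labelled replicate 1 (log2 fold changes -0.36 and -0.56).

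None of the 6 late small subunit factors passed by edgeR or by DESeq2, and their median log2 fold change was -0.01. By edgeR 0 of the 6 had an unadjusted p below 0.05, the lowest being that of Rrp12 (0.0781). Nob1, the nuclease that makes the final cut of the small subunit RNA, had 22, 25.2 and 27.9 CPM in control and 15.3, 26.6 and 35.7 CPM in OE-labelled libraries. The OE-labelled values spread to both sides of the controls (0.04, edgeR SE 0.26, adjusted p = 0.919), and the sign of the estimate changed under other scalings. Its partner Pno1 had 22.9, 27.5 and 25.2 CPM against 23.3, 24.6 and 26.5 CPM. These ranges coincide (-0.02, edgeR SE 0.17, adjusted p = 0.937). Ltv1, an assembly factor released late from the particle, and Tsr1, a GTPase-like factor, overlapped as well (0.01 and -0.16). Bysl had a higher estimate with overlap (0.38, SE 0.22). Rrp12, an export factor counted at 11.4, 12.1 and 10.5 CPM against 8.85, 9.38 and 5.46 CPM, was the only one of the 6 without overlap (-0.52, edgeR SE 0.27, adjusted p = 0.168), and it passed in 1 of 16 alternatives.

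**Figure D3:**
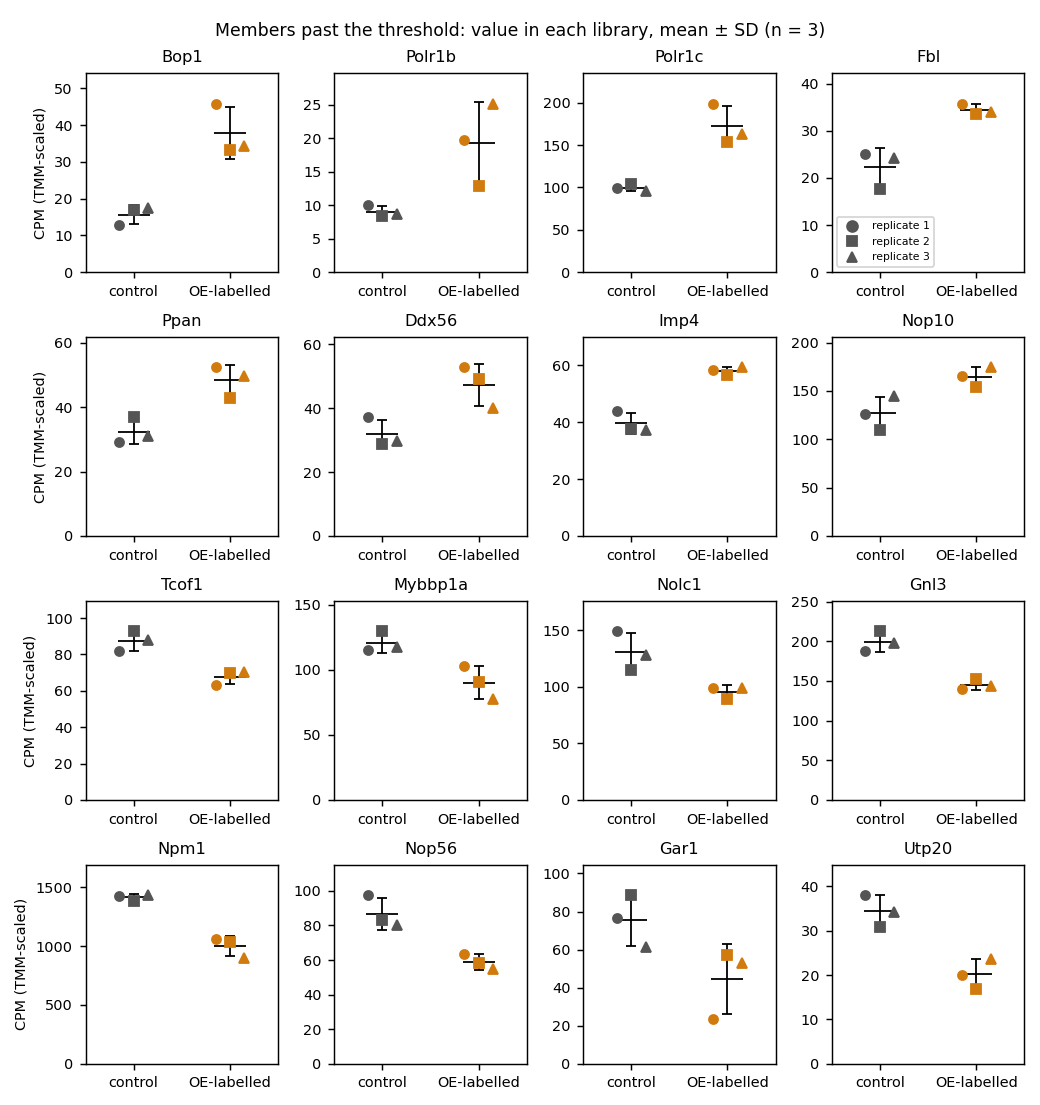
TMM-scaled CPM of the 16 members past the threshold in each library (circle, square and triangle for replicates 1, 2 and 3), with the mean and SD of each group (n = 3). Axes start at 0; the 2 groups do not overlap in any panel, and the low Gar1 value of 23.7 CPM is that of OE-labelled replicate 1.

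PeBoW is a complex of Bop1, Pes1 and Wdr12 that large subunit RNA processing needs, and only its Bop1 transcript passed. Bop1 (chromosome 15, 76452989 to 76477277, minus strand) had 12.8, 16.8 and 17.4 CPM in control and 45.9, 33.2 and 34.4 CPM in OE-labelled libraries. Even the lowest OE-labelled value was far above the highest control value. The log2 fold change was 1.27 (edgeR SE 0.2, adjusted p = 0.00078) and passed in all 16 alternatives, from 0.98 to 1.35. Pes1 had 62.3, 54.1 and 60.0 CPM against 66.4, 58.2 and 41.2 CPM, with overlap (-0.09, edgeR SE 0.17, adjusted p = 0.733). Wdr12 also overlapped, with 46.7, 40.5 and 38 CPM against 58.4, 49.6 and 37.4 CPM (0.22, edgeR SE 0.17, adjusted p = 0.374). Close matches to the 3′ end of Wdr12 lie in 3 other genes. OE-labelled replicate 3 was the lowest of the 6 libraries for both. The Bop1 to Pes1 count ratio was 0.269 ± 0.0554 in control and 0.699 ± 0.133 in the OE-labelled group (SD, n = 3). For Bop1 to Wdr12 it was 0.382 ± 0.0957 and 0.792 ± 0.126 (SD, n = 3). The groups did not overlap in either ratio. Exons of Bop1 overlap those of Mroh1 on the opposite strand, and the counting is not stated to use strand. Reads that fall in the shared stretch may therefore belong to either gene. Whether that stretch includes the counted 3′ end was not tested. In all, 21 members share exons with a gene on the opposite strand, and among those that passed these also include Mybbp1a (Spns2), Imp4 (Gm28306), Nop56 (Idh3b) and Gnl3 (Pbrm1).

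Among 14 further large subunit factors, Ppan and Ddx56 were higher, Gnl3 was lower and 11 did not pass, with a median of 0.07. Ppan, an assembly factor, had 29.3, 36.8 and 31.1 CPM in control and 52.3, 43.0 and 49.6 CPM in OE-labelled libraries. Ddx56, an RNA helicase, had 37.1, 28.9 and 29.8 CPM against 52.7, 49.2 and 39.9 CPM. Both were without overlap and both rose by 0.57 on the log2 scale (SE 0.15 and 0.17, edgeR adjusted p = 0.0152 and 0.0225). Neither passed with DESeq2 (adjusted p = 0.0729 and 0.0879) or, with edgeR, after the GC offset (adjusted p = 0.153 and 0.16). Ppan was also lost without control replicate 1 or 3 (edgeR adjusted p = 0.0793 and 0.0711). Ddx56 was lost without control replicate 2 or 3 or OE-labelled replicate 1 or 2 (edgeR adjusted p from 0.0595 to 0.103). Gnl3 encodes nucleostemin, a nucleolar GTPase abundant in stem and tumour cells. It had 188, 213 and 197 CPM in control and 139, 153 and 144 CPM in OE-labelled libraries, well apart (log2 fold change -0.46, edgeR SE 0.11, adjusted p = 0.00719). The call was kept in 15 of 16 alternatives and missed the threshold without control replicate 2 (edgeR adjusted p = 0.0556). Ppan and Gnl3 overlap exons of small RNA genes on their own strand, and with Nop56 they are the members that hold fractional counts, 10 values in all.

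The 11 others ran from -0.21 to 0.3. The helicases Ddx18 (0.3, edgeR SE 0.13, adjusted p = 0.0932) and Ddx27 (-0.21, edgeR SE 0.12, adjusted p = 0.192) had estimates of opposite sign without overlap, and neither passed. For Ddx18, 3 other genes hold a close match to its 3′ end. Overlap was seen for Nop2, an RNA methyltransferase (0.22), and for Wdr74 (0.2), Noc2l (0.12), Rrp1b (0.08), Nip7 (0.06) and Nop16 (0.05). The same held for the GTPase Gnl2 (-0.03), Rrs1 (-0.08) and Ebna1bp2 (-0.16). Ebna1bp2 had 42.7, 72.3 and 86.1 CPM in OE-labelled libraries, around a control range of 71.4 to 77.3 CPM, with replicate 1 lowest as for Gar1 and Nob1.

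Base composition moved with the fold changes, as it did across the transcriptome. Spearman's rho between log2 fold change and the GC content of the longest transcript was 0.28 over the 54 members and 0.37 over all tested genes with a GC value. These are descriptions across genes that share the same 6 libraries. Median GC content was 52.9% for the members higher, 50.8% for those lower and 48.2% for those that did not pass. With a per-library offset for GC content, 6 members passed as higher and 9 as lower, beside 11.9% and 11.3% of all genes. Of the 8 higher, 5 still passed (Bop1, Polr1b, Polr1c, Imp4 and Nop10), and of the 8 lower, 7 did, without Npm1. Fbl did not pass with the offset (0.47, edgeR adjusted p = 0.0704). Genes that passed only with it were Nop58 (0.41), Ubtf (-0.49) and Ddx27 (-0.45), at edgeR adjusted p values of 0.014, 0.011 and 0.0138.

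**Figure D4:**
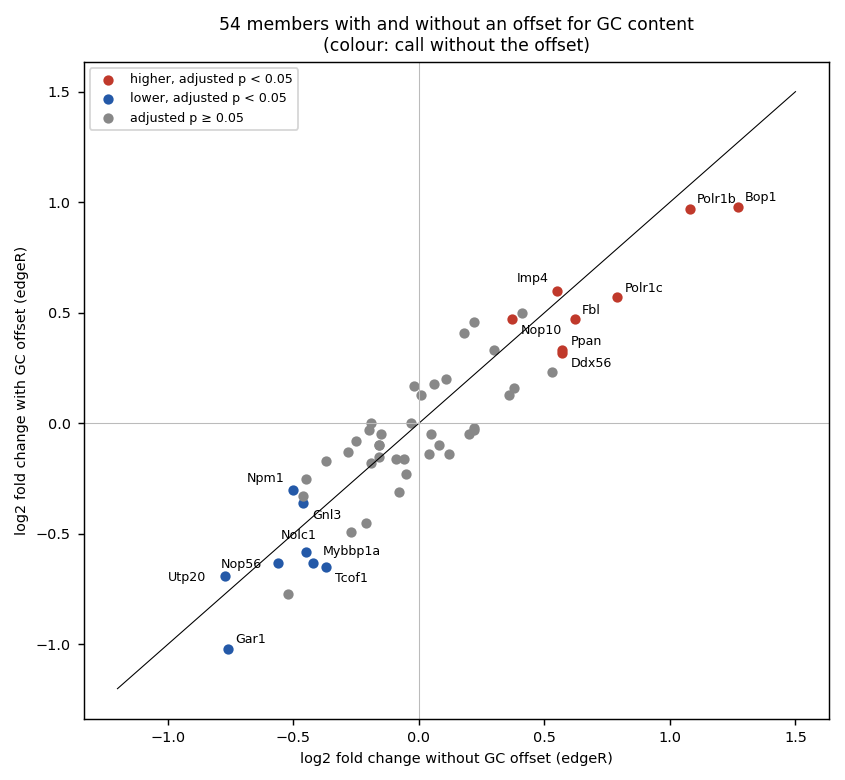
Log2 fold change of each of the 54 members without (x axis) and with (y axis) the per-library GC offset; the line marks equal values and colours give the call without the offset. Bop1 moved from 1.27 to 0.98 and Npm1 from -0.5 to -0.3, and all 16 coloured points keep their sign.

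The wider pathway was read from 128 other ribosome biogenesis genes, of which 127 were tested. In this list 18 were higher (14.2%) and 23 lower (18.1%), with a median log2 fold change of -0.13, beside 16.5% and 12.7% of all tested genes. The 43 other small subunit factors had 4 higher and 10 lower, and the 49 other large subunit factors 6 higher and 12 lower. Of the 10 other genes of the Pol I machinery 4 were higher, 1 was lower and 5 did not pass. Of the 11 snoRNP assembly genes 3 were higher and 8 did not pass, and of the 14 tested exosome and nuclease genes 1 was higher and 13 did not pass. With mitochondrial genes left out of the scaling, the whole list had 15 higher and 33 lower, beside 14.1% and 15.1% of all genes. Without control replicate 1, 2 or 3 the genes called higher in the whole list numbered 11, 10 and 10, beside 10%, 9.84% and 9.42% of all genes. Those called lower numbered 14 and 12 without control replicates 2 and 3, beside 6.91% and 6.52%.

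Of the 5 largest increases among the called genes of this list, 3 were in snoRNP assembly genes. Pih1d1, a subunit of the R2TP chaperone that builds box C/D particles, went from 10.4 ± 2.08 to 27.1 ± 2.0 CPM (SD, n = 3; log2 fold change 1.37, edgeR adjusted p = 0.000693). Ruvbl2, an ATPase of the same chaperone, went from 14.8 ± 1.82 to 29.7 ± 3.72 CPM (SD, n = 3; 1.01, edgeR adjusted p = 0.00253). Its partner Ruvbl1 overlapped between groups and did not pass (-0.21). Snu13, the protein that first binds the box C/D RNA, went from 13.2 ± 2.66 to 27.5 ± 0.631 CPM (SD, n = 3; 1.05, edgeR adjusted p = 0.00244). These 3 increases passed in all 16 alternatives. Taf1c, of the Pol I promoter selectivity factor, and Nle1, a large subunit factor, rose by 1.02 and 1 on the log2 scale (edgeR adjusted p = 0.0485 and 0.0363) from means of 3.67 and 5.83 CPM in control. Their calls were kept in 6 and 9 of 16 alternatives.

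The largest decreases were those of Dimt1 (-1.32), Bccip (-1.15), Dhx37 (-1.14), Noc3l (-1.08) and Senp3 (-0.89). Noc3l, a large subunit assembly factor, fell from 39.2 ± 2.06 to 18.5 ± 4.3 CPM (SD, n = 3; edgeR adjusted p = 0.00139). Bccip fell from 30.4 ± 5.67 to 13.7 ± 2.72 CPM (SD, n = 3; edgeR adjusted p = 0.00222). Both passed in all 16 alternatives. The calls of Dhx37, a small subunit helicase, Senp3, a nucleolar protease, and Dimt1, an RNA methyltransferase, were kept in 15, 11 and 9 of them (edgeR adjusted p = 0.014, 0.0304 and 0.0195).

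Pol I subunits outside the 54 were then set beside Polr1b and Polr1c, a choice made after the values were seen. Polr1d, which like Polr1c is shared with RNA polymerase III, had 73.2, 73.6 and 75.5 CPM in control and 83.3, 118 and 118 CPM in OE-labelled libraries. It rose by 0.52 on the log2 scale (edgeR SE 0.15, adjusted p = 0.0179), with no overlap. Polr1e rose by 0.79 (edgeR SE 0.27, adjusted p = 0.0415) and Znrd1, the symbol used here for Polr1h, by 0.71 (edgeR SE 0.25, adjusted p = 0.0499). Both had no overlap but were kept in only 4 and 7 of 16 alternatives, and Polr1d in 11. Twistnb (Polr1f) and Cd3eap (Polr1g) did not pass (0.22 and 0.04). With the GC offset Polr1d, Polr1e and Znrd1 did not pass (edgeR adjusted p = 0.0632, 0.0795 and 0.0725), and Twistnb did (0.45, edgeR adjusted p = 0.0246). In contrast Ttf1, which stops Pol I at the end of the ribosomal DNA, fell from 80.1 ± 11.9 to 47.3 ± 7.87 CPM (SD, n = 3; -0.76, edgeR adjusted p = 0.00382).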

How the data were processed

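QuantSeq 3′ FWD libraries were made from 500 ng of total RNA, per the labels' protocols. The deposited table holds unnormalised estimated counts per gene for 6 libraries, and 3.093% of its values above 0 are not whole. The submitters' processing notes name STAR, HTSeq and mm10/GRCm38; strand and multi-read settings are not given in the sources used here. Values were rounded for count tests. Groups and replicate numbers came from the sample titles, and the table was taken by gene symbol.

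Genes passing filterByExpr (10687) were scaled by TMM and tested with edgeR 4.0.16 (quasi-likelihood, R 4.3.3), with Benjamini-Hochberg adjustment over all of them and a threshold of 0.05. The procedure was run on simulated counts with the same spread in both groups. That check does not cover the unequal spread of these libraries. The 16 alternatives included DESeq2 1.42.0, limma 3.58.1 (voom), other scalings and filters, a GC offset (loess, span 0.5), a replicate block and each library left out. Gene positions, GC content and 3′ end matches (200 bases at 95% identity, of the last 500) came from GENCODE M21 on GRCm38, which held 51903 of the 52249 gene IDs. Strand in the positions above is that of the annotation.

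All 54 members are accounted for, with per-library values for those that passed and for a fixed set that did not. Of the other ribosome biogenesis genes, the 5 highest and 5 lowest log2 fold changes among those that passed were named. The per-library values of Rrn3, Nop58, Utp15, Rrp12 and Ebna1bp2, and the values of Ruvbl1, Ttf1 and the other Pol I subunits, were chosen after they were seen. A single marker is not reported here. The members and lists were chosen with earlier results of these data known.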

Additional observations from a re-analysis of the deposited data

How the results depend on the processing

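Over the 16 alternatives, 740 of 864 log2 fold changes of the 54 members kept their sign and side of the threshold, 50 lost a call, 26 gained one and 48 changed sign. None of the sign changes was in the 16 members that passed, for which 206 of 256 values kept the call and 50 lost it. With DESeq2, 3 members were higher and 11 of the other ribosome biogenesis genes, beside 9.91% of all genes. With the GC offset 11 of the others were higher, beside 11.9% of all genes. Leaving out each library in turn gave 3 to 9 members higher, 4 to 14 lower, 10 to 18 others higher and 12 to 31 lower. Calls over all genes, in both directions together, ran from 1748 to 3522 in the same fits, so calls varied outside the members too. Without OE-labelled replicate 1 the members lower went from 8 to 14, and the share of all genes lower from 12.7% to 15.9%. Without control replicate 2 the members higher went from 8 to 3, and the share of all genes higher from 16.5% to 9.84%. Calls over all genes in both directions numbered 1748 to 1892 without a control library, and 3344, 2298 and 3522 without OE-labelled replicates 1, 2 and 3. The fit of all libraries gave 3120. It used 1 dispersion per gene for both groups, although the OE-labelled libraries varied more. Each fit without a library tests 5 samples, and the cause of these differences was not tested.

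The replicate block left 8 members higher and 8 lower, with all 16 calls kept, and 17 and 25 of the others. Of the 10687 tested genes it called 3113, with 1733 higher, and the fit without the block called 3120, with 1767 higher. The 2 fits shared 2959 called genes. Deviations of same-numbered libraries correlated at 0.1, 0.02 and 0.07, and those of differently numbered libraries at -0.11 to 0.04. Each OE-labelled library correlated highest with the control of its own number, though weakly. These values do not settle whether the numbers are pairs, and the main fit did not take them as such.

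Estimates that changed sign were small and did not pass. With DESeq2 size factors these were Ltv1 (-0.04) and Nob1 (-0.003), with DESeq2 Ltv1 (-0.04) and Nob1 (-0.0029), with voom Nob1 (-0.04), and without a count filter Ltv1 (-0.03). With library totals they were Npm3 (0.0038), Pno1 (0.03) and Gnl2 (0.02). Without mitochondrial genes they were Ltv1 (-0.05), Nob1 (-0.01) and Nop16 (-0.01). The GC offset changed Imp3 (-0.03), Nob1 (-0.14), Pno1 (0.17), Nop2 (-0.02), Nop16 (-0.05), Wdr74 (-0.05), Noc2l (-0.14) and Rrp1b (-0.1). The replicate block with the GC offset changed Imp3 (-0.03), Nob1 (-0.18), Pno1 (0.17), Nop2 (-0.02), Nop16 (-0.06), Wdr74 (-0.04), Noc2l (-0.14) and Rrp1b (-0.1). With each library left out, ranges crossing 0 were -0.4 to 0.03 for Ebna1bp2, -0.11 to 0.01 for Gnl2, -0.09 to 0.13 for Ltv1, -0.09 to 0.12 for Nip7, -0.28 to 0.25 for Nob1 and -0.19 to 0.15 for Nop16. They were -0.18 to 0.06 for Npm3, -0.29 to 0.06 for Pes1, -0.1 to 0.04 for Pno1, -0.28 to 0.1 for Polr1a, -0.09 to 0.15 for Rrp1b and -0.27 to 0.02 for Rrs1.

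At 2180116 to 2519917 counts per library, low members are the least precise: Polr1b rests on 18 to 22 counts in control libraries.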
